A study of Mus musculus with 4 samples.

Results

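Notch signalling in hair cells was described here through 10 genes, namely the receptors Notch1, Notch2, Notch3 and Notch4, the ligands Jag1, Jag2 and Dll1, and the Fringe enzymes Lfng, Mfng and Rfng. They were chosen by symbol among the 23996 genes of the deposited table, and all 10 had a row. The new hair cells were sorted as cells positive for both eGFP and tdTomato, and the original hair cells as cells with eGFP alone, each from cochlear epithelium at postnatal day 7. All mice were Sox2-CreER+/Atoh1-HA+/Atoh1-eGFP+/tdTomato+ on a C57BL/6 background. In them a Cre recombinase driven by Sox2 and activated by tamoxifen turned on an Atoh1 transgene and tdTomato, while eGFP reported Atoh1. The tamoxifen dose was 0.20 mg/g at postnatal day 3, and corn oil alone served as the control injection. The labels do not tie either kind of injection to single libraries. The genotype, age and tissue are thus common to new and original hair cells. The sort defined the groups, and whether the injection also differed between them is not stated. Each group had 2 libraries, which the table merged into 1 FPKM value per gene (fragments per kilobase of transcript scaled to all mapped fragments, a level adjusted for transcript length). No difference below could therefore be set against the spread between libraries, sequencing depth is unknown, and no error or detection floor can be given.

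Notch is a transmembrane receptor that is cut when a ligand on a neighbouring cell binds it, and its freed inner part enters the nucleus, joins the DNA-binding protein Rbpj and turns on targets such as the Hes and Hey genes. In the developing cochlea, hair cells carry Delta and Jagged ligands that activate Notch1 on their neighbours, and this lateral inhibition holds the neighbours in the supporting cell fate. Fringe enzymes add a sugar to the receptor's extracellular repeats and so tune which ligands it answers to. Atoh1, the transcription factor expressed from the transgene, binds E-box motifs and starts hair cell development.

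The ligand Dll1 and the Fringes Rfng and Mfng had lower FPKM in new than in original hair cells, and the receptor Notch1 had a higher FPKM. Jag1 and Lfng were higher in new hair cells by less than 2-fold, and Jag2 was lower. Of the 10 genes, 7 passed a filter of at least 1 FPKM in 1 group and more than 0 in both, and Notch2, Notch3 and Notch4 did not. On the log2(FPKM + 1) scale, 3 of the 7 were lower by at least 1 (at least 2-fold), against 34.9% of the 9026 genes that passed the same filter, and 1 of the 7 was higher by at least 1, against 19.9%. The median difference of the 7 was -0.67 on that scale, and that of all 9026 genes was -0.21. Counts over so few genes were not read as differing from those shares.

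The scale between the groups bears on every direction given below. FPKM summed to 244225 over all genes in new hair cells and to 2165833 in original hair cells. Scaling new hair cells up to the sum of original hair cells adds 3.15 to each log2 ratio. Under it Mfng and Jag2 turned to higher in new hair cells, while Dll1 and Rfng were still lower and Notch1, Jag1 and Lfng still higher. Under trimmed-mean scaling and quantile normalization all 7 genes kept the direction of the deposited values. Rank within a column does not depend on the scaling. The share of a gene within its class is unchanged when a column is multiplied by a single factor, but not under quantile normalization. Ranks and shares are given beside the levels.

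**Figure D1:**
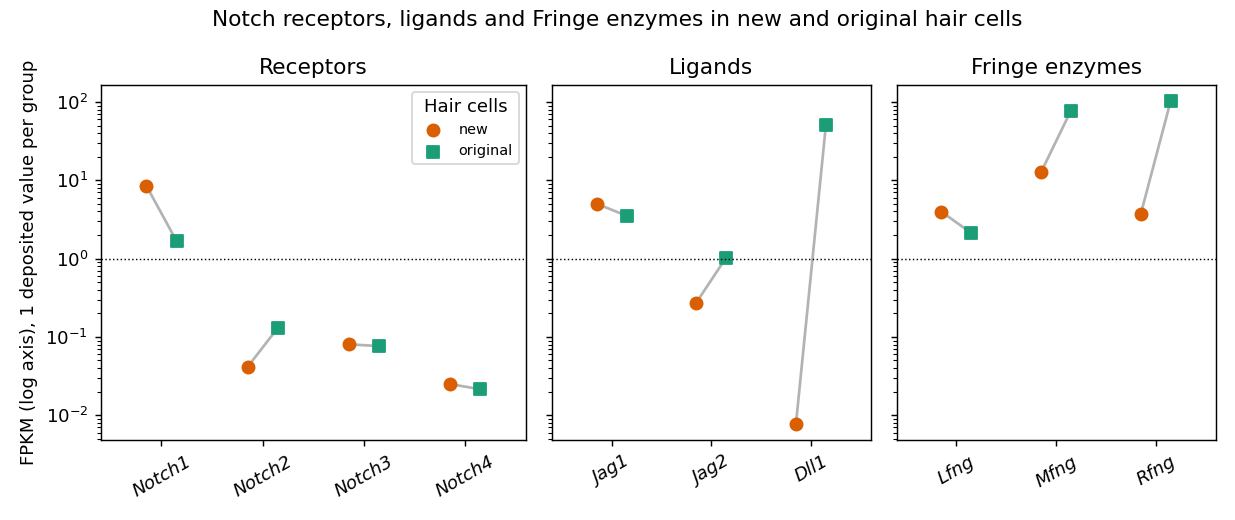
FPKM (log axis) of the 4 receptors, 3 ligands and 3 Fringe enzymes in new (circles) and original hair cells (squares), 1 deposited value per group with no error, and a dotted line at 1 FPKM. Dll1 stood at 0.00779 FPKM in new and 50.7 FPKM in original hair cells, and Notch2, Notch3 and Notch4 lay under the line in both groups.

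Stretches of 250 bases upstream of the transcription start were read from RefSeq (GRCm38.p6, the same assembly as mm10) for the genes on which the comparison turns, so that the regulatory sequence stands beside the levels. The RefSeq table matched 9 of the 10 genes, all but Mfng, with 10 windows, since Dll1 had a second start. For 8 of the 9 the RefSeq start equalled the start in the deposited table. Capitals mark TGGGAA (or TTCCCA on the other strand), the core that Rbpj recognises, and CAGCTG, an E-box that reads the same on both strands and is 1 form of CANNTG. A second E-box, CAGATG, was searched on both strands too and was in none of the 10 windows. Of all 32851 promoter windows of this length, 21.6% held TGGGAA, 13.0% CAGCTG, 14.4% CAGATG and 66.2% CANNTG.

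The receptors were Notch1 almost alone. Notch1 (mm10, chromosome 2, 26457902 to 26503822, minus strand) stood at 8.56 FPKM in new and 1.67 FPKM in original hair cells, which is 5.14-fold higher in new hair cells. Its log2 ratio of 2.36 was above that of 89.5% of the 9026 genes. By level it was in the top 11.5% of all genes in new hair cells and in the top 26.9% in original hair cells. The p-value in the authors' deposited table was 0.244.

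Notch2, a paralogue of Notch1 used in many tissues, had 0.0413 FPKM in new and 0.131 FPKM in original hair cells. Notch3, known from smooth muscle and pericytes of blood vessels, had 0.0805 FPKM in new and 0.0763 FPKM in original hair cells. Notch4, known from endothelium, had 0.0250 FPKM in new and 0.0215 FPKM in original hair cells. At such levels, with depth unknown, no difference between the groups can be read, and the authors' deposited table gave a p-value of 1 for each, as it did for 13187 of its genes. Notch1 made up 98.3% of the summed receptor FPKM in new and 87.9% in original hair cells. Notch1 had the highest level of the 4 receptors in both groups.

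Notch1 overlaps other transcripts. In GENCODE its exons share 1068 bases with 0610009E02Rik and 414 bases with Gm13568, both on the opposite strand at its 3' end, and the values of those genes were not analysed here. No source used here says whether strand was used in counting, so reads from these overlaps cannot be told apart. The Notch1 row also shares its locus with the microRNA gene Mir6996, listed at 0 FPKM in both groups. The window upstream of the Notch1 start is shown because Notch1 was the member with the highest ratio of new over original.
Notch1 (chr2:26503823-26504072, minus strand): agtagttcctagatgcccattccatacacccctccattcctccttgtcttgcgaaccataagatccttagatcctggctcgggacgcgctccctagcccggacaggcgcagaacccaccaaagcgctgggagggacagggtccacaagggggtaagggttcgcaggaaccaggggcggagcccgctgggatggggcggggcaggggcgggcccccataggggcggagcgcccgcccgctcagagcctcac
Neither TGGGAA nor any CANNTG was in this window.

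Of Jag1, Jag2 and Dll1, a different ligand had the highest level in each group. Dll1, a Delta ligand of nascent hair cells (mm10, chromosome 17, 15367354 to 15375823, minus strand), stood at 0.00779 FPKM in new and 50.7 FPKM in original hair cells. Its log2 ratio was -12.67, and 22 of the 9026 genes, Dll1 among them, had a ratio this low or lower. Genes at 0 FPKM in new hair cells did not pass the filter and are outside this count. Its p-value in the authors' deposited table was 0.253, above that of Rfng, whose log2 ratio of -4.80 was nearer to 0. Without a value per library it cannot be told whether both original libraries held Dll1. Among 1034 genes whose FPKM in original hair cells lay within 2-fold of that of Dll1, the median log2 ratio was -2.86, and 0.290% had a lower ratio than Dll1. Genes at 0 FPKM in new hair cells are left out here too, and choosing genes by their level in original hair cells favours low ratios. Among 45 genes whose FPKM in new hair cells lay within 2-fold of that of Dll1, the median log2 ratio was -7.82. All of them (100%) were lower by at least 1 on the log2(FPKM + 1) scale, and 11.1% had a lower ratio than Dll1. At such a level in new hair cells, a gene could pass the filter only through its level in original hair cells. Low ratios among these 45 genes were therefore largely set by the filter, and nothing is read from them.

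Jag1 is the Jagged ligand that supporting cells of the cochlea express (mm10, chromosome 2, 137081451 to 137116520, minus strand). It stood at 5.03 FPKM in new and 3.53 FPKM in original hair cells, 1.42-fold higher in new hair cells, with p = 0.762 in the authors' deposited table. It was in the top 15.8% of all genes in new and the top 21.0% in original hair cells. Jag2, the Jagged ligand of hair cells (mm10, chromosome 12, 112908590 to 112929495, minus strand), stood at 0.274 FPKM in new and 1.03 FPKM in original hair cells, 3.77-fold lower in new hair cells on the deposited scale and higher after scaling to equal sums. Its level in original hair cells was only just above the 1 FPKM filter, and its difference on the log2(FPKM + 1) scale was -0.67. The p-value of Jag2 in the authors' deposited table was 0.323.

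Jag1 held 94.7% of the summed ligand FPKM in new hair cells and 6.39% in original hair cells. Dll1 held 0.147% in new and 91.7% in original hair cells. Between the Jagged ligands alone, Jag1 exceeded Jag2 by 18.3-fold in new and by 3.41-fold in original hair cells. With Dll1 left out, an alternative chosen after seeing the data, the Jag1 share was 94.8% in new and 77.3% in original hair cells. Among these 3 ligands Jag1 thus had the highest level in new hair cells, and the difference in order from original hair cells rested on Dll1.

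The windows of Jag1 and Dll1 are shown because Jag1 was the highest of the 3 ligands in new and Dll1 in original hair cells.
Jag1 (chr2:137116521-137116770, minus strand): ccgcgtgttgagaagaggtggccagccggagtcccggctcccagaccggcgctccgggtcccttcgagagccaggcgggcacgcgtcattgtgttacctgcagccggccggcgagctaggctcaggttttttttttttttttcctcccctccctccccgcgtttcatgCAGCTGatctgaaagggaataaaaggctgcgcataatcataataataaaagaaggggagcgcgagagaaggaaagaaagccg
Dll1 (chr17:15375824-15376073, minus strand): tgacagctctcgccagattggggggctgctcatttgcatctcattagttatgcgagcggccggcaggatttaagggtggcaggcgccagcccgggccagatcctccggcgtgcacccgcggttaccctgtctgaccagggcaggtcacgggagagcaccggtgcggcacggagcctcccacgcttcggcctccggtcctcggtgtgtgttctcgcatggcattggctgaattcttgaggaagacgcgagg
The Jag1 window held CAGCTG once, with its first base 82 bases before the start, and no TGGGAA. The Dll1 window at the deposited start held 1 CANNTG and none of the marked motifs. The window at the second RefSeq start of Dll1, 1109 bases upstream, held CAGCTG once. Exons of Dll1 share 867 bases with A930024N18Rik on the opposite strand in GENCODE, whose value was not analysed here.

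**Figure D2:**
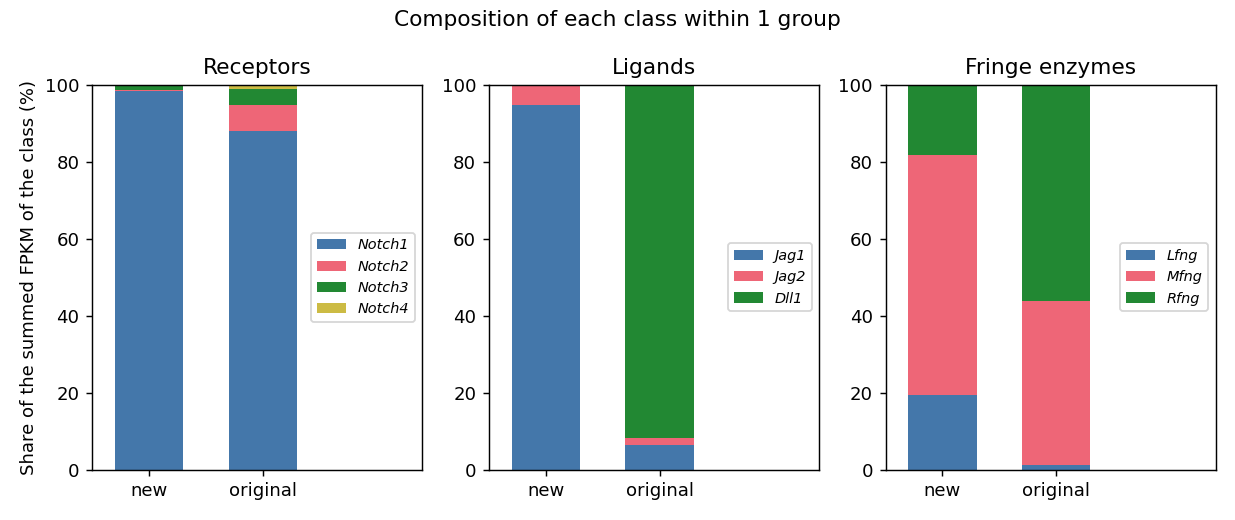
Share (%) of each gene in the summed FPKM of its class, for new (left bar) and original hair cells (right bar) in each panel, with no error since each group has 1 value. Jag1 filled 94.7% of the ligand bar in new hair cells and Dll1 91.7% in original hair cells, and Rfng took 18.1% of the Fringe bar in new and 56.3% in original hair cells.

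The Fringe enzymes were the most abundant class in both groups, with a summed level of 20.4 FPKM in new and 183 FPKM in original hair cells. The ligands summed to 5.31 FPKM in new and 55.2 FPKM in original hair cells, and the receptors to 8.71 FPKM in new and 1.90 FPKM in original hair cells. Rfng, radical fringe (mm10, chromosome 11, 120780745 to 120784204, minus strand), stood at 3.70 FPKM in new and 103 FPKM in original hair cells, 27.8-fold lower in new hair cells. It was in the top 18.8% of all genes in new and the top 5.92% in original hair cells. Its p-value of 0.0320 was the only one under 0.05 among the 10 genes in the authors' deposited table, where 8.83% of the 9026 genes were lower in new hair cells at such a p and 0.554% higher. With Benjamini-Hochberg adjustment over the 9026 genes, the adjusted p of Rfng was 0.526, the lowest of any gene though not of Rfng alone, and so no gene passed 0.05.

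Mfng, manic fringe (mm10, chromosome 15, 78755883 to 78773445, minus strand), stood at 12.7 FPKM in new and 77.7 FPKM in original hair cells. It was 6.11-fold lower in new hair cells on the deposited scale, by less than 2-fold after quantile normalization, and higher after scaling to equal sums. Its rank moved little, with the top 8.87% in new and the top 6.71% in original hair cells, and its p-value in the authors' deposited table was 0.121. Mfng was the Fringe of highest level in new hair cells and Rfng in original hair cells. Mfng over Rfng was 3.44 in new and 0.756 in original hair cells.

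Lfng, lunatic fringe, which supporting cells of the cochlea express (mm10, chromosome 5, 140607341 to 140615545, plus strand), stood at 3.98 FPKM in new and 2.11 FPKM in original hair cells. It was 1.88-fold higher in new hair cells, with p = 0.629 in the authors' deposited table. Lfng made up 19.5% of the summed Fringe FPKM in new and 1.16% in original hair cells. Mfng made up 62.4% in new and 42.6% in original hair cells, and Rfng 18.1% in new and 56.3% in original hair cells. Lfng and Rfng, which stood nearly level in new hair cells (Rfng over Lfng 0.930), were 48.7-fold apart in original hair cells.

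Low ratios were common among genes of such a level in original hair cells. Choosing genes by that level favours low ratios, since it is the denominator of the ratio. The median log2 ratio was 0.76 around the Jag2 level in original hair cells (1.03 FPKM) and -3.89 around the Rfng level there. Of 892 genes within 2-fold of the Rfng level in original hair cells, 85.1% were at least 2-fold lower in new hair cells on the log2(FPKM + 1) scale, and 35.8% had a lower ratio than Rfng. Of 913 genes within 2-fold of the Mfng level there, 80.4% were at least 2-fold lower, and 63.1% had a lower ratio than Mfng. Because of that choice, these shares do not show whether the lower Rfng and Mfng are ordinary for their level. The same was done by the level in new hair cells, since the column chosen sets which genes are of like level. That choice favours high ratios in turn. By level in new hair cells, 7.75% of 3199 genes had a lower ratio than Rfng and 21.2% of 2010 genes a lower ratio than Mfng. For Notch1, 91.1% of 2739 genes of like level in original hair cells had a lower ratio, and 86.5% of 2431 genes of like level in new hair cells.

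The windows of Lfng and Rfng are shown because these Fringes differed in opposite directions.
Lfng (chr5:140607091-140607340, plus strand): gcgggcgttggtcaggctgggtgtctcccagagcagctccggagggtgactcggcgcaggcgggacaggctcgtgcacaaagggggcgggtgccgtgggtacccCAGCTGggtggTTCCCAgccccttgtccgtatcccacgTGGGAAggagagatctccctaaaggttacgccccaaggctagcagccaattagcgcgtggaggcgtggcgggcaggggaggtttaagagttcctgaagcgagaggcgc
Rfng (chr11:120784205-120784454, minus strand): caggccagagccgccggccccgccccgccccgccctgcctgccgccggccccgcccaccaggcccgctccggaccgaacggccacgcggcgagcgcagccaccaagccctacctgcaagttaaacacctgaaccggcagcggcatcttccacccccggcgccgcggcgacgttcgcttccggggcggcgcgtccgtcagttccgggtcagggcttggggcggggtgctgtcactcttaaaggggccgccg
Lfng, a Notch target in the segmentation clock of mouse embryos, was the only one of the 9 genes with TGGGAA in its window. Its matches began 135 bases before the start on the minus and 108 bases before it on the plus strand of the gene, and a CAGCTG began 146 bases before the start. The Rfng window held 1 CANNTG and none of the marked motifs, and 75.6% of its bases were G or C, against a median of 52.4% over all windows. A letter match does not show binding, and a window without one says nothing about the factor.

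**Figure D3:**
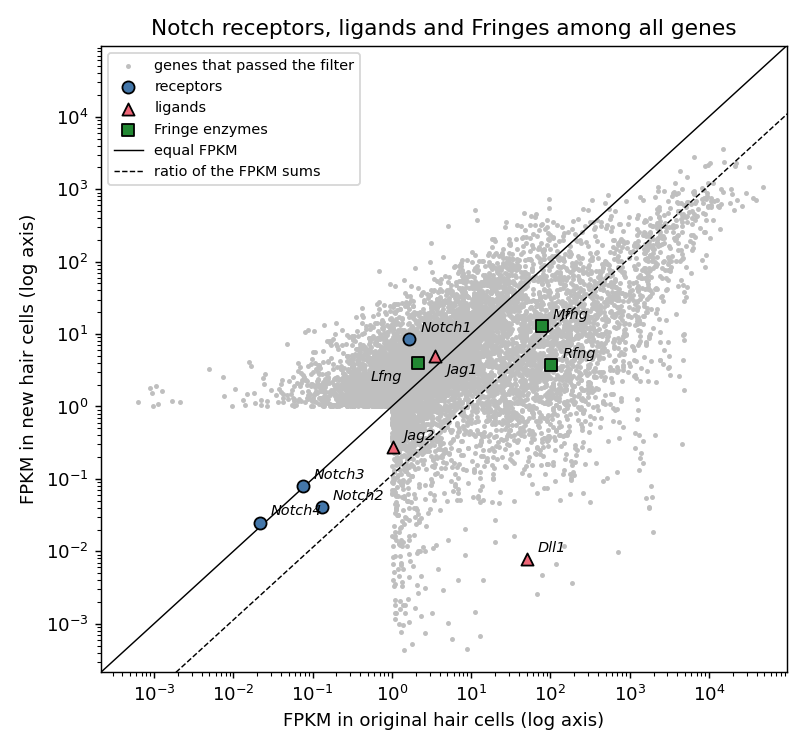
FPKM in new against original hair cells (both log axes) for the genes that passed the filter (grey) and all 10 Notch receptors, ligands and Fringes (coloured), 1 value per group. Rfng, at 3.70 FPKM in new and 103 FPKM in original hair cells, and Dll1, at 0.00779 FPKM in new and 50.7 FPKM in original hair cells, lay below the dashed line of equal FPKM sums, and Notch1 lay above the solid line of equal FPKM.

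**Figure D4:**
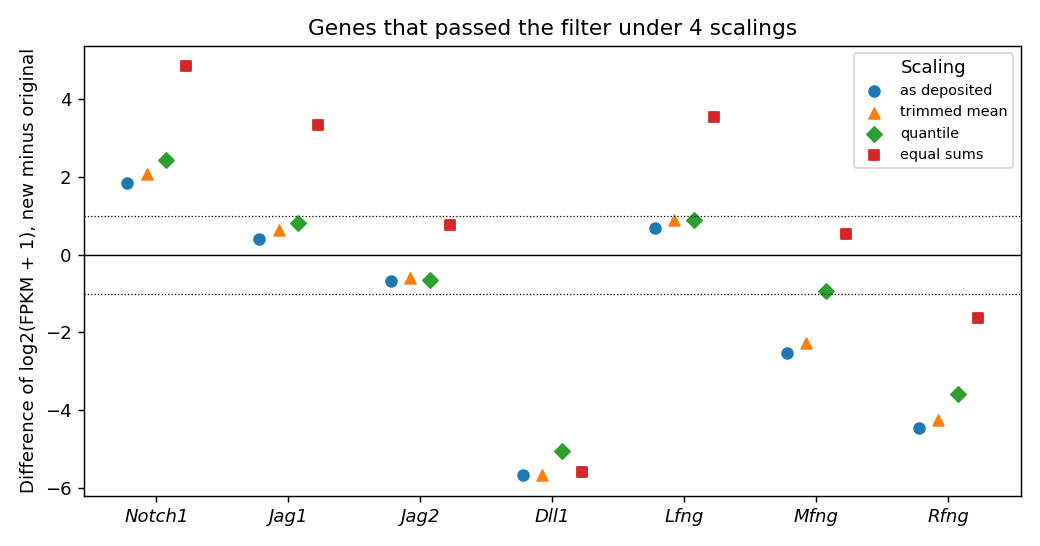
Difference of log2(FPKM + 1), new minus original, for the 7 genes that passed the filter, on the deposited values and under 3 other scalings, with dotted lines at a 2-fold difference and no error, since each group has 1 value. Mfng ranged from -2.52 on the deposited values to 0.53 with equal sums, whereas Notch1 was above 1 and Rfng and Dll1 below -1 under all 4 scalings.

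Transcript length differed between the classes. By the union of GENCODE exons, Rfng, Lfng and Mfng spanned 2489, 2505 and 2839 bases, Dll1 4219 bases, and the receptors and Jagged ligands 5827 to 14232 bases. Over the 8591 genes with such a length, Spearman's rho between length and log2 ratio was 0.00197, a description across genes within 2 pooled columns. Split into 3 equal parts by length, the shortest genes, which include the Fringes, had 37.2% at least 2-fold lower in new hair cells, the middle ones, which include Dll1, 29.4%, and the longest, which include the receptors and Jagged ligands, had 37.8%.

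Other genes of the Notch pathway were set beside these 10 through a list of 69 genes in 5 groups. Of the 46 that passed the filter, 30 were higher and 16 lower in the new cells, where 45.3% of all 9026 genes were higher and 54.7% lower. The number higher was 31 with trimmed-mean scaling, 34 after quantile normalization and 39 with equal sums, while the share of all 9026 genes that was higher was 49.9%, 56.0% and 77.7% under these scalings in that order. None of the 46 passed an adjusted p of 0.05 by the Benjamini-Hochberg method. At p under 0.05 in the authors' deposited table stood 2 of them, both lower. Among them was Gxylt2, a xylosyltransferase that extends sugars on Notch, at 0.437 FPKM in new and 76.1 FPKM in original hair cells.

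Among further ligands, 2 of 7 passed the filter, Dlk2 at 38.5 FPKM in new and 27.0 FPKM in original hair cells and Dner at 1.58 FPKM in new and 4.29 FPKM in original hair cells. Dll3, a Delta protein that does not activate Notch in neighbours, was under 1 FPKM in both groups, at 0.00539 FPKM in new and 0.792 FPKM in original hair cells. Dll4, the Delta ligand of sprouting vessels, had 0.172 FPKM in new and 0.419 FPKM in original hair cells. These ligands were named after their values were seen.

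The genes that process or glycosylate the receptor were split, with 6 higher and 5 lower of 11. Adam10, the protease of the outer cut, stood at 12.2 FPKM in new and 15.1 FPKM in original hair cells. The inner cut is made by gamma-secretase, a complex of a presenilin with nicastrin, Aph1 and Pen2. Psen2, a presenilin, stood at 0.813 FPKM in new and 36.4 FPKM in original hair cells. Aph1a went the other way, at 13.1 FPKM in new and 2.55 FPKM in original hair cells. Ncstn and Psenen, named after their values were seen, did so as well. Ncstn (nicastrin) stood at 25.4 FPKM in new and 9.17 FPKM in original hair cells, and Psenen (Pen2) at 92.4 FPKM in new and 33.0 FPKM in original hair cells.

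Of 7 ubiquitin and trafficking genes that passed the filter, 6 were higher in new hair cells, against 45.3% of all 9026 genes. A count over so few genes was not read as differing from that share. Dtx3, of the Deltex family, stood at 39.5 FPKM in new and 4.96 FPKM in original hair cells, and Lnx1, a ubiquitin ligase that acts on Numb, at 6.11 FPKM in new and 1.18 FPKM in original hair cells. Aak1, a kinase of endocytosis, was the lower one, at 0.638 FPKM in new and 9.41 FPKM in original hair cells. Mib1, the ubiquitin ligase that ligands need to signal, was under 1 FPKM in both groups, at 0.0592 FPKM in new and 0.145 FPKM in original hair cells.

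In the nuclear group 7 genes were higher and 6 lower of 13. Rbpj itself stood at 6.65 FPKM in new and 1.42 FPKM in original hair cells, 4.68-fold higher in new hair cells. Its p-value in the authors' deposited table was 0.233. Both Ctbp1 and Cir1, corepressors of Rbpj complexes, were lower on the deposited scale. Ctbp1 stood at 33.5 FPKM in new and 318 FPKM in original hair cells, and Cir1 at 13.3 FPKM in new and 151 FPKM in original hair cells. Of 13 target genes that passed the filter, 10 were higher in new hair cells. Hes5 stood at 17.9 FPKM in new and 6.30 FPKM in original hair cells, Hes1 at 11.3 FPKM in new and 24.7 FPKM in original hair cells, and Nrarp, a feedback inhibitor of Notch, at 3.89 FPKM in new and 2.18 FPKM in original hair cells. Apart from Id1, Id3 and Ccnd1, these targets were named after their values were seen. By the rule on size came Id1, at 459 FPKM in new and 66.6 FPKM in original hair cells, Id3, at 326 FPKM in new and 79.2 FPKM in original hair cells, and Ccnd1, at 17.4 FPKM in new and 4.28 FPKM in original hair cells.

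**Figure D5:**
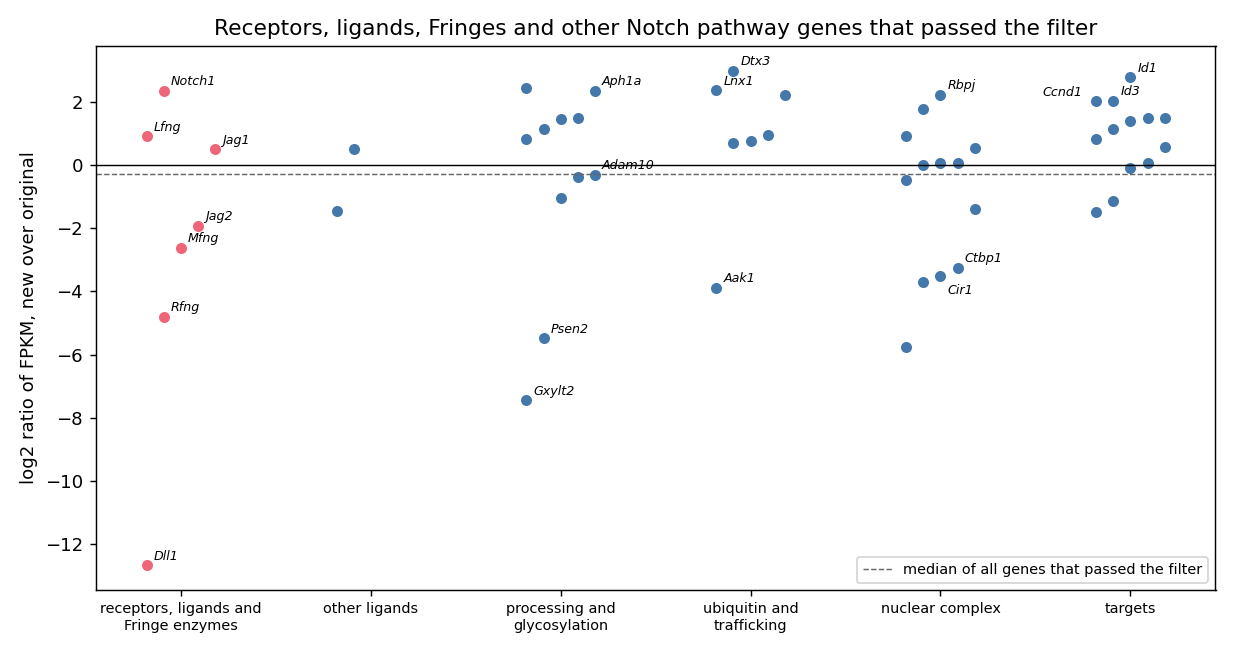
log2 ratio of FPKM, new over original, for the 7 receptors, ligands and Fringes (left) and the 46 further Notch pathway genes that passed the filter in 5 groups, 1 point per gene with no error, and a dashed line at the median of all genes that passed the filter (-0.27). Dll1 at -12.67 was the lowest point and Dtx3 at 2.99 the highest.

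Markers of the sorted cells and of others were read from the same table. All 10 hair cell markers exceeded 1 FPKM in both groups and all 10 were lower in new hair cells, where 54.7% of all 9026 genes were lower. Pou4f3 was nearly level, at 16.1 FPKM in new and 16.7 FPKM in original hair cells. The markers summed to 894 FPKM in new and 40630 FPKM in original hair cells, mostly from Ocm (592 FPKM in new and 26071 FPKM in original). Of 11 supporting cell markers 10 passed the filter, and 9 of these were higher in new hair cells, against 45.3% of all 9026 genes. The lower one was Sox2, at 21.8 FPKM in new and 61.5 FPKM in original hair cells. The sums were 1175 FPKM in new, of which Epyc gave 725 FPKM, and 286 FPKM in original hair cells, with Prox1 near 0 in both. Sox2, Sox9 and Hes5 are also in the list of Notch targets. Notch1, Jag1 and Lfng, expressed by supporting cells, were higher along with most supporting cell markers, and Jag1 is 1 of the markers. In sorted bulk samples, fewer cells of a type and less RNA per cell cannot be told apart, and the part of supporting cells in these differences was not tested. The 8 mesenchyme markers summed to 412 FPKM in new hair cells, mostly from Lum, and to 2047 FPKM in original hair cells, mostly from Otor, and Lum itself was higher in new hair cells (375 FPKM in new and 89.4 FPKM in original). The 6 Schwann cell and glia markers summed to 96.2 FPKM in new and 1008 FPKM in original hair cells, with 983 FPKM of the sum in original from Cnp. S100b of that list was higher in new hair cells (84.5 FPKM in new and 17.6 FPKM in original), and so was Mbp (7.35 FPKM in new and 2.31 FPKM in original). The 6 neuron markers summed to 7.34 FPKM in new and 3221 FPKM in original hair cells, the sum in original nearly all from Nefl. Snap25 of the neuron list was higher in new hair cells (2.27 FPKM in new and 1.59 FPKM in original). The 6 macrophage markers summed to 71.7 FPKM in new and 3.91 FPKM in original hair cells, mostly from Tyrobp, with Ptprc at 0 in both. Csf1r, C1qa, Cx3cr1 and Aif1 of that list were under 1 FPKM in both groups and lower in new hair cells, so the sum rests on Tyrobp. The part of these cells in the lower Dll1, Mfng and Rfng was not tested. Of 7 pericyte markers none reached 1 FPKM, with Kcnj8 at 0 in both groups. Of 7 endothelial markers Kdr and Cldn5 were at 0 in both groups, and the sums of 15.2 FPKM in new and 6.02 FPKM in original hair cells came mostly from Egfl7. Emcn of that list was lower in new hair cells (0.189 FPKM in new and 1.87 FPKM in original). Atoh1, the induced gene, stood at 83.4 FPKM in new and 791 FPKM in original hair cells, where transgene and endogenous transcripts were not separated.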

How the data were processed

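Total RNA of sorted cells was made into 2 libraries per group (SMART-Seq v4, a low-input kit, per the labels' protocols). CASAVA 1.8, Trimmomatic and TopHat were used with mm10, per the submitters' processing notes. No source used here names the program behind the expression values and p-values. The authors deposited FPKM as 1 value per gene and group, a log2 ratio and an unadjusted p-value, per the file headers. Averaging or pooling of libraries, and their origin from separate animals or not, are not stated either. Log2 ratios recomputed from the FPKM columns were equal to the deposited log2 for all 10 genes within 0.01.

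Genes with at least 1 FPKM in 1 group and above 0 in both were kept (9026 of 23996), and differences were taken as log2(FPKM + 1), new minus original, a scale that understates low genes. Folds are plain ratios of FPKM. Levels are the authors' group values. Benjamini-Hochberg adjustment of the deposited p-values covered the 9026 genes. The planned limma fit could not be fitted to 1 value per group. The code for trimmed-mean scaling, quantile normalization and p-value adjustment was tested on simulated data. Far fewer genes differed there than here, and equal-sum scaling was not tested. The 10 genes and all lists were chosen with earlier results of these data known. Of the other pathway genes, those differing at least 4-fold with at least 5 FPKM in 1 group were named, plus Rbpj, Adam10 and Mib1, and any other is said to be named after its values were seen. Some genes that this rule names are not reported here. The comparison with genes of like level was added after seeing the data. Printed starts are the deposited ones plus 1, as 3116 of 6746 genes with the same end in GENCODE began exactly 1 base higher there, against 218 at the deposited start. Overlaps and exon lengths are from GENCODE M21. Tools were scipy 1.17.1, pandas 2.3.3, numpy 2.4.6 and matplotlib 3.10.9 under Python 3.11.15.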

Additional observations from a re-analysis of the deposited data

How the results depend on the processing

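The number of genes at least 2-fold lower in new hair cells was 3 on the deposited values and 2 to 4 under every alternative tried. The number at least 2-fold higher was 1, and it was 3 with equal FPKM sums and 0 without rows that share a locus, which removes Notch1 and Jag2 because microRNA genes lie in them. The median difference of the genes that passed the filter was -0.67. It was -1.60 with a pseudocount of 0.1, 0.76 with equal sums, -0.61 with trimmed-mean scaling and -0.66 after quantile normalization. It was -0.057 with no filter, which admits Notch2, Notch3 and Notch4, and -2.52 both when 5 FPKM were required and without rows that share a locus, each of which leaves 5 genes. The median of all genes moved too, to 2.53 with equal sums, -0.005 with trimmed-mean scaling and 0.28 after quantile normalization. All genes higher by at least 2-fold numbered 6278 and lower 1354 with equal sums, 2880 and 2357 after quantile normalization, and 1793 and 3149 on the deposited values. Mfng was reversed with equal sums, at 0.53. Of the pathway list, 7 genes were lower with equal sums against 16. With receptors under 1 FPKM left out, the Notch1 share was 100% in both groups. With Dll1 left out, chosen after seeing the data, the Jag1 share of ligands was 94.8% in new and 77.3% in original hair cells. No gene of the 10 passed an adjusted p of 0.05 under any filter. No paired analysis was possible because the table holds 1 value per group, so leaving out each library was not run either. The unknown depth limits every value under 1 FPKM.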

Other observations

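Of the 9026 genes that passed the filter, which leaves out any gene at 0 in 1 group, 6 had at least 50 FPKM in original and under 0.01 FPKM in new hair cells, and 0 had the opposite pattern. These counts cannot be set against each other, as more genes reach 50 FPKM in original hair cells. There Dll1 at 50.7 FPKM ranked 1903 of all genes, while in new hair cells the supporting cell marker Gjb2 at 51.0 FPKM ranked 767. Beside Dll1 the 6 genes were Wnt8b, a Wnt ligand, Ibsp, a sialoprotein of bone, Klhl32, Irf8, a transcription factor of myeloid cells, and Slc7a2, an amino acid transporter. They were chosen after their values were seen. Wnt8b stood at 0.00989 FPKM in new and 712 FPKM in original hair cells. Irf8 stood at 0.00473 FPKM in new and 77.5 FPKM in original hair cells. The p-values of these 6 genes in the authors' deposited table lay between 0.114 (Klhl32) and 0.253 (Dll1), so none was under 0.05.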
